A study of Mus musculus with 16 samples.

Results

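The cyclic AMP (cAMP) arm of signalling was followed in cultured mouse cortical neurons through 10 genes. They are the receptor Gpr3, the phosphodiesterases Pde4a, Pde4b, Pde4d, Pde7b and Pde10a, the protein kinase A (PKA) subunits Prkaca, Prkar1a and Prkar2b, and the kinase Sik1. The genes were taken by symbol from the annotation of the Affymetrix mouse genome 430 2.0 array. There, 28 of 45037 non-control probe sets carried these symbols, and they make up 10 of the 18193 genes named on the array.

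As background, cAMP is made by adenylyl cyclases, which receptors coupled to a stimulatory G protein switch on. GPR3 is an orphan receptor of that kind with high activity in the absence of added ligand. Phosphodiesterases break cAMP down, and those of the PDE4 and PDE7 families are specific for it, while PDE10A also takes cyclic GMP. cAMP binds the regulatory subunits of PKA and frees the catalytic subunits, which phosphorylate the transcription factor CREB and also the salt-inducible kinases. SIK1, itself the product of a CREB target gene, holds CREB's coactivators (the CRTC proteins) in the cytoplasm until PKA stops it.

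All RNA came from cortical neurons of C57BL/6 mice, dissected at embryonic day 16.5 and harvested on day 7 in vitro. Every group carried a lentivirus, applied on day 5 in vitro for 6 h with polybrene at 6 µg per ml. The virus carried a short hairpin RNA (shRNA) to c-Fos in 4 groups and, in the 4 control groups, one to firefly luciferase, an insect enzyme absent from mice. Activity was blocked before KCl was added on day 7 for 0, 1, 3 or 6 h, so that the 0 h groups are silenced neurons without KCl. KCl depolarises neurons and lets calcium in through voltage-gated channels, a standard stand-in for activity. Each of the 8 groups held 2 arrays, 16 in all. The design asks how these genes respond to KCl, how they differ when Fos, which pairs with Jun proteins to form AP-1, is reduced, and whether the response itself differs. The labels number the arrays of a group as biological replicates without naming separate dissections, so p-values measure only the spread between these arrays, which may be technical. Because the labels describe a single c-Fos shRNA virus, the loss of Fos cannot be told apart from any other effect of that virus.

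Values are given as deposited linear intensities, 1 per probe set and array. The 2 values of a group are in the order replicate 1, replicate 2. Changes are log2 differences of quantile-normalized log2(intensity + 16), given with their standard error (SE), and this scale understates the change of dim genes. A gene or probe set passed the test when its Benjamini-Hochberg adjusted p in limma was under 0.05 within a contrast. Intensities of different probe sets are not on a common scale, so no level is set against another gene's. All 10 genes were above the filter on low values, and so were 24 of their 28 probe sets. Gpr3 owes its place above that filter, at an intensity of about 39.2, to the KCl groups, since its 0 h arrays lie on both sides of it.

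Fos, the target of the knockdown, had intensities of 246 ± 20.5 (SD, n = 2) at 0 h and 11930 ± 44.5 at 6 h with control shRNA, against 135 ± 23.6 and 3241 ± 140 with c-Fos shRNA. It was lower with c-Fos shRNA by 0.75 to 1.85 on the log2 scale, with an adjusted p of at most 0.000248 at every time, as the labels say. Defining markers of neurons were bright, with 8 of 8 above the filter and a summed intensity of 68940 to 85250 over the arrays. Slc17a7, the vesicular glutamate transporter of mature cortical excitatory neurons, was dim at 92.9 to 185. The 5 excitatory markers on the array, Slc17a7 among them, summed to 17490 to 18080 at 0 h with control shRNA and 14040 to 14330 with c-Fos shRNA. Of these, 2 of 5 were lower, beside 10.3% of all genes. Markers of other cells were measured too. Astrocyte markers summed to 19240 to 30360, markers of the oligodendrocyte lineage to 9179 to 17570 and markers of progenitors and dividing cells to 9516 to 12970. Microglial markers were near the floor, with 1 of 8 above the filter, and 4 of 8 vascular markers were above it. The inhibitory markers moved with KCl, with 5 of 7 higher at 6 h in both arms. Over all genes 16.7% were higher at 6 h with control shRNA and 16.1% with c-Fos shRNA. Their sum was 18380 to 18930 at 0 h and 24350 to 26390 at 6 h with control shRNA, and 17470 to 18060 and 26540 to 27370 with c-Fos shRNA. Their part in the results below was not tested, and in bulk RNA fewer cells of a type and less RNA per cell cannot be told apart.

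Promoter windows of 250 bases before an annotated start are shown for Gpr3, which rose with KCl, and for Prkar1a, Pde4b and Pde4d, whose probe sets rose or fell with it. RefSeq (GRCm38.p6) gave 22 such windows for 9 of the 10 genes, all but Sik1. Each reads 5′ to 3′ on the gene's strand and ends at the base before the start. Capitals mark the cAMP response element, TGACGTCA, or its short form, TGACG, on either strand (CGTCA when read on the other strand).
Gpr3 (chr4:133212537-133212786, minus strand): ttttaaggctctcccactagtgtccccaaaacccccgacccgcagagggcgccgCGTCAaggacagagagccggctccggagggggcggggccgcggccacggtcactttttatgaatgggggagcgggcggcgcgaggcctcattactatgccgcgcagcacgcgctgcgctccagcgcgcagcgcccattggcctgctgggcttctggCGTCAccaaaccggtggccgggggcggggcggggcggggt
Prkar1a (chr11:109650699-109650948, plus strand, the fifth of its windows): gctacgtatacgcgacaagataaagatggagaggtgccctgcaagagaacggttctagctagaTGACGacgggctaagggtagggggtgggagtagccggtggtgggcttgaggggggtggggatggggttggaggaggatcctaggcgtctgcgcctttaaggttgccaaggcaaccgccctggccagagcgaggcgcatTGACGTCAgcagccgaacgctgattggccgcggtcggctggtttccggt
Pde4b (chr4:102421305-102421554, plus strand, the first of its windows): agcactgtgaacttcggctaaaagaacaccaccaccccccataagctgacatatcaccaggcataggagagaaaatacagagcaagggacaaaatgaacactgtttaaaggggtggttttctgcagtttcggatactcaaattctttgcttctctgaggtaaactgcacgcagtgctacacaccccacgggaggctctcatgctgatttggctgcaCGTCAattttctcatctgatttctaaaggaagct
Pde4d (chr13:108653927-108654176, plus strand): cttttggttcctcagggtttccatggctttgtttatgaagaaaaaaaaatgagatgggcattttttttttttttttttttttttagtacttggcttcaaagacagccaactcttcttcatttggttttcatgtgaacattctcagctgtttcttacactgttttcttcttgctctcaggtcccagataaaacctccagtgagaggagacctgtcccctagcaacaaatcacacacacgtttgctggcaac
The Gpr3 window holds the short form with its first base 196 and 40 bases before the start. The Prkar1a window holds the full element at 49 bases before the start and a separate short form at 187 bases. The Pde4b window has a short form at 34 bases, while the other Pde4b windows hold neither form, and the Pde4d window has none. For Prkar1a and Pde4b a window with a match was picked to be shown, so the shares below are no fair measure for it. Short forms also occur in other Prkar1a windows and in windows of Prkaca and Pde4a, which are not shown. Over all 32851 RefSeq windows of this length, 1.55% held the full element and 17.8% the short form, which counts the full elements too. The AP-1 motif TGANTCA was searched on both strands as well, and 6.75% of all windows but none of the 22 held it. A match is a run of letters, not a shown binding site, and its absence speaks only of these windows.

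With control shRNA, Sik1 rose at 1 h, Sik1 and Gpr3 rose and Pde4b fell at 3 h, and at 6 h Sik1, Gpr3 and Pde4d were higher and Pde4b and Prkar2b lower. That is 1 of 10 genes at 1 h, where 3.12% of all 13915 tested genes passed. It is 3 of 10 at 3 h, against 30.2% of all genes, and 5 of 10 at 6 h, against 44.1%. With c-Fos shRNA the counts were 1 of 10 at 1 h (3.38% of all genes), 4 of 10 at 3 h (28.2%) and 4 of 10 at 6 h (41%). From 3 h on these shares are near those of all genes, so nothing particular to the cAMP genes is read from them. Over the 3 times the control arm had 9 of 30 tests past the threshold, beside 25.8% of such tests over all genes. In the c-Fos arm the members had 9 of 30, beside 24.2%. With the replicate number as a block the control arm had 14 of 30, but the block also raised the shares of all genes, to 8.12%, 44.4% and 56.9% at 1, 3 and 6 h. Groups whose arrays do not overlap are common as well. Against 0 h this held for 38.5%, 59.1% and 67% of all genes at 1, 3 and 6 h with control shRNA and for 34.7%, 60.9% and 68.4% with c-Fos shRNA. From 1 to 3 h it held for 55.9% and 52.1%, and from 3 to 6 h for 52.7% and 55.4%. All shares without overlap are on normalized values, while arrays of single genes are compared below as deposited, which can differ. For the probe sets, read in their own fit, the shares past the threshold against 0 h were 3.11%, 23.3% and 35.4% with control shRNA and 2.96%, 20.9% and 32.1% with c-Fos shRNA. From 1 to 3 h they were 14.6% and 13.1%, from 3 to 6 h 10.4% and 10.6%, and 15.6%, 14.5%, 17.1% and 17.2% between the arms at 0, 1, 3 and 6 h. In the interaction 0.00634%, 0.155% and 0.387% of probe sets passed. The median change of the 10 genes was 0.07 at 6 h with control shRNA and 0.15 with c-Fos shRNA, beside −0.07 and −0.06 over all tested genes. What follows concerns the single genes, by their place in the pathway.

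Gpr3, the receptor, had the widest span over the 8 groups among the probe sets that stand for the 10 genes, on 1460275_at, a factor of 10.6 between the lowest and the highest group mean. With control shRNA its intensities were 37.7 and 54.8 at 0 h, 87.5 and 107 at 1 h, 238 and 332 at 3 h, then 307 and 379 at 6 h. In the c-Fos arm they were 39.8 and 24.9, then 35.6 and 88.6, then 103 and 121, and then 127 and 185. As deposited, the arms overlapped at 0 and 1 h, though on normalized values they did not at 1 h. With c-Fos shRNA at 1 h, 1 array, at 35.6, lay between the 2 silenced arrays of its arm. At 3 and 6 h both arrays with control shRNA were above both arrays with c-Fos shRNA, while 59.2% and 57.7% of all genes did not overlap between the arms at these times.

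**Figure D1:**
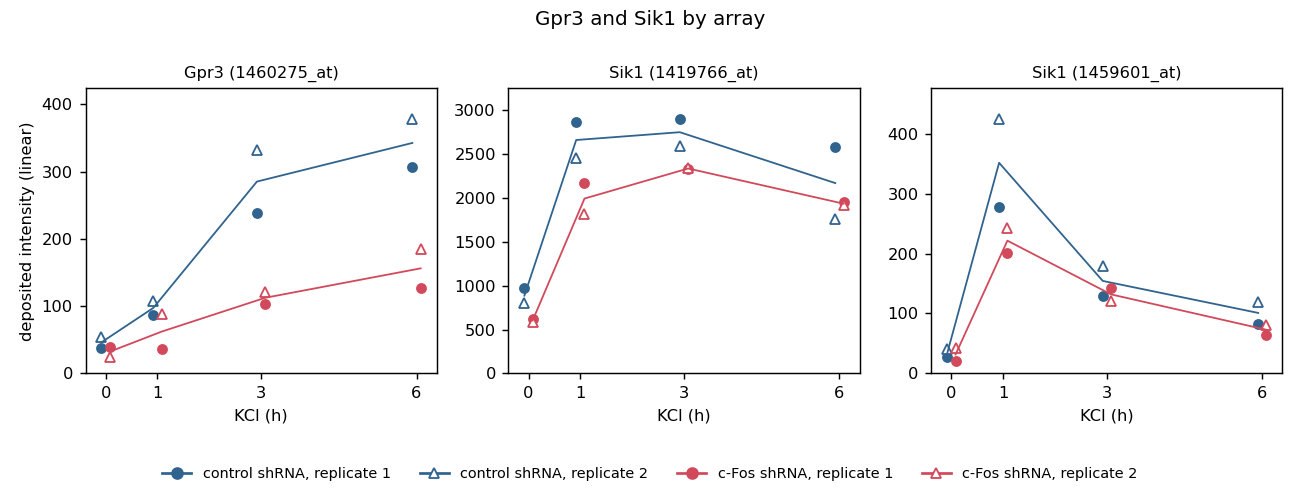
Deposited intensity (linear axis from 0) of the Gpr3 probe set and of both Sik1 probe sets against hours of KCl. Points are single arrays, lines join the means of the 2 arrays of a group, and the c-Fos shRNA arm of Gpr3 ends at 127 and 185 where the control arm ends at 307 and 379.

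In the control arm Gpr3 rose by 2.30 (SE 0.29, adjusted p = 6.56e-05) at 3 h and by 2.60 (SE 0.29, adjusted p = 1.54e-05) at 6 h. Its change at 1 h was 0.87 with an adjusted p of 0.182. The step from 1 to 3 h passed at 1.42 (adjusted p = 0.00358), a contrast in which 21.2% of genes passed (19.3% in the c-Fos arm), and the step from 3 to 6 h was 0.30 (adjusted p = 0.57). In the c-Fos arm it rose by 1.43 (SE 0.29, adjusted p = 0.00247) at 3 h and by 1.86 (adjusted p = 0.00026) at 6 h. Because the 0 h level is dim, these sizes lean on the added constant. With 64 in place of 16 they were 1.67 and 1.93 in the control arm and 0.88 and 1.20 in the c-Fos arm. As raw ratios of group means, intensity at 6 h was 7.41 times that at 0 h with control shRNA and 4.83 times with c-Fos shRNA. With the replicate number as a block, the control change at 1 h also passed (adjusted p = 0.0219), as did the step of 0.80 from 1 to 3 h in the c-Fos arm (adjusted p = 0.0779 without the block and 0.0106 with it).

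Between the arms Gpr3 differed at 3 h by −1.22 on the log2 scale (SE 0.29, adjusted p = 0.00861), lower with c-Fos shRNA, and by −1.09 (SE 0.29, adjusted p = 0.0163) at 6 h. The group mean intensities differed by −60.6% and −54.4%. The differences of −0.36 (adjusted p = 0.445) before KCl and of −0.59 (adjusted p = 0.181) after 1 h did not pass, and that at 1 h did with the replicate block (adjusted p = 0.0456). The 3 h call was lost without control replicate 2 of that time (adjusted p = 0.0721) or c-Fos replicate 1 (−1.15, adjusted p = 0.0600). The 6 h call was lost without control replicate 2 of that time (−0.97, adjusted p = 0.0916) or c-Fos replicate 1 (−0.93, adjusted p = 0.108). The difference between the arms in the KCl response, the interaction, was −0.86 (SE 0.41, adjusted p = 0.662) at 3 h and −0.74 (SE 0.41, adjusted p = 0.469) at 6 h. It did not pass with the block either (adjusted p = 0.163 and 0.148), so a smaller induction of Gpr3 in the c-Fos arm was not shown. In the order of group means the neighbours from the lowest level up to c-Fos shRNA at 3 h overlap, the next group apart is c-Fos shRNA at 6 h, and control shRNA at 3 and 6 h lie above it and overlap each other.

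The genes whose 8 group means ran most like those of Gpr3, among 3482 genes outside the pathway lists whose group means span at least 1 log2 unit, were Marchf11 (Pearson r = 0.996), Mest (0.989), B230216N24Rik (0.988), Slco4c1 (0.987) and Penk (0.984). Penk encodes the opioid peptide precursor proenkephalin, and Mest is an imprinted gene. These correlations describe the 8 means and carry no test.

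On the brightest phosphodiesterase probe sets and without the replicate block, Pde4b dipped, and nothing passed for Pde4a and Pde7b. Pde4d was higher at 6 h in both arms, and with c-Fos shRNA at 3 h already. Pde10a rose from 3 to 6 h in both arms.

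**Figure D2:**
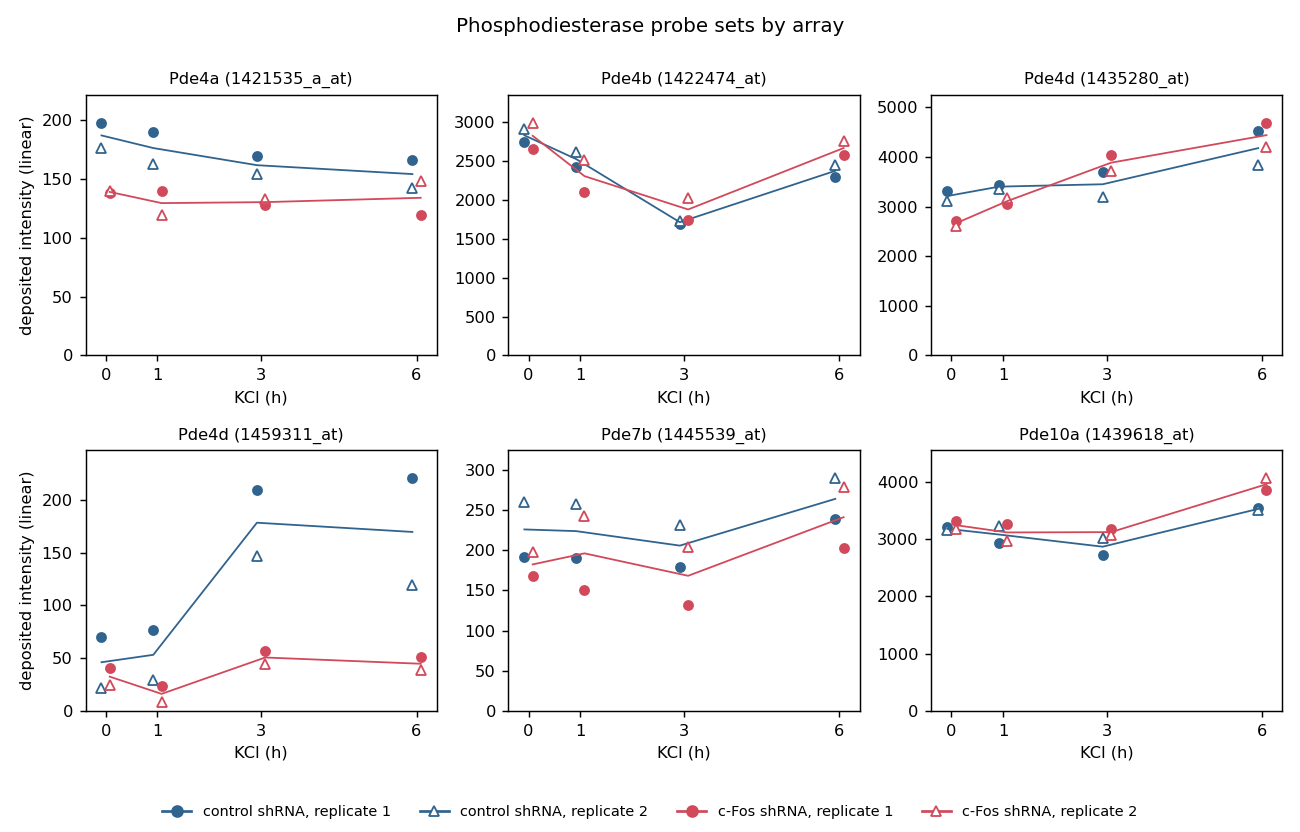
Deposited intensity (linear axes from 0) of the phosphodiesterase probe sets against hours of KCl, with single arrays as points and lines through the means of the 2 arrays of a group. The brightest Pde4b probe set is lowest at 3 h in both arms, while the brightest Pde4d probe set climbs and the dim one, 1459311_at, climbs in the control arm.

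Pde4b, which encodes a cAMP-specific phosphodiesterase of many neuronal isoforms, fell and recovered. On its probe set 1422474_at, control arrays read 2750.5 and 2912 at 0 h, 2429.9 and 2621 at 1 h, 1695 and 1732 at 3 h, then 2297 and 2452 at 6 h. The c-Fos arm read 2660.05 and 2989.99, then 2101 and 2511, then 1736 and 2019, and then 2576 and 2759. In both arms every array at 3 h was below every array of the other times. The fall at 3 h was −0.75 (SE 0.09, adjusted p = 5.02e-05) with control shRNA and −0.59 (SE 0.09, adjusted p = 0.000333) with c-Fos shRNA. From 3 to 6 h it rose again by 0.47 (adjusted p = 0.00398; 17% of all genes passed in this step) and 0.50 (adjusted p = 0.003; 17.1%). At 6 h it was still 0.28 below 0 h with control shRNA (adjusted p = 0.026), a call lost without any 1 of the control arrays of 0 or 6 h (adjusted p of 0.0531 to 0.125). With c-Fos shRNA the 6 h change was −0.10 (adjusted p = 0.437). The early changes at 1 h, −0.22 (adjusted p = 0.357) and −0.34 (adjusted p = 0.0688), passed only with the replicate block (adjusted p = 0.0351 and 0.00145). The same held for the step of −0.25 from 1 to 3 h in the c-Fos arm (adjusted p = 0.0757 without the block and 0.00402 with it). The arms differed by 0.18 or less in size at every time, and none of these differences passed, though that of 0.18 at 6 h did with the block (adjusted p = 0.0241).

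Other Pde4b probe sets did not all follow. The second brightest, 1422473_at, fell at 3 h with c-Fos shRNA by 0.56 (adjusted p = 0.0425), a call lost without any 1 of the c-Fos arrays of 0 or 3 h or of the control arrays of 3 h (values from −0.49 to −0.63). Against 0 h its group mean intensity at 3 h differed by −32.7% with control shRNA, which did not pass, and by −35.3% with c-Fos shRNA. The dim 1442700_at went the other way. Its control arrays read 125 and 93.1 at 0 h and 209 and 240.2 at 6 h, a rise of 1.02 (SE 0.21, adjusted p = 0.00255), the only call of a second probe set opposite to the brightest of its gene in the contrasts tested. With the mean of all Pde4b probe sets, the 3 h change was near 0 (adjusted p = 0.999 with control shRNA and 0.82 with c-Fos shRNA), so the fall depends on which probe sets stand for the gene. That mean takes in all 6 probe sets, of which 4 are above the filter. The others are near the floor, with mean intensities of 11.9 and 8.22.

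Pde4d, another PDE4 enzyme, rose on its brightest probe set, 1435280_at. Control arrays read 3309 and 3117 at 0 h, 3445 and 3361 at 1 h, 3698 and 3203.5 at 3 h, then 4520.2 and 3838 at 6 h. With c-Fos shRNA they read 2719 and 2603 at 0 h, 3045 and 3179 at 1 h, 4051 and 3720.2 at 3 h, then 4686 and 4195 at 6 h. The c-Fos arm started below the control arm and was level with or above it from 3 h. Its rise was 0.51 (SE 0.10, adjusted p = 0.00238) at 3 h and 0.72 (SE 0.10, adjusted p = 0.000133) at 6 h. In the control arm the change was 0.05 at 3 h (adjusted p = 0.78) and the rise at 6 h was 0.32 (SE 0.10, adjusted p = 0.0217). That control call was lost without control replicate 2 of 0 h (0.27, adjusted p = 0.125) or control replicate 1 of 6 h (0.19, adjusted p = 0.217). Both c-Fos calls were lost with the mean of both Pde4d probe sets (0.49, adjusted p = 0.22, and 0.53, adjusted p = 0.141).

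The interaction for this probe set was 0.46 (SE 0.145, adjusted p = 0.299) at 3 h and 0.39 (SE 0.145, adjusted p = 0.237) at 6 h. With the replicate number as a block both passed (adjusted p = 0.0081 and 0.0105), in a fit where 4% and 11.3% of all genes did. The direct difference between the arms was −0.28 (adjusted p = 0.0721) at 0 h and 0.18 (adjusted p = 0.257) at 3 h, and both passed with the block (adjusted p = 0.00198 and 0.0325). So did the steps of 0.31 from 1 to 3 h (adjusted p = 0.000939) and 0.21 from 3 to 6 h (adjusted p = 0.0174) in the c-Fos arm and of 0.27 from 3 to 6 h (adjusted p = 0.00312) in the control arm, none of which passed without it.

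The dim Pde4d probe set 1459311_at gave another picture. Its control arrays read 70.4 and 21.9 at 0 h, 77 and 29.3 at 1 h, 210 and 147 at 3 h, then 221 and 119 at 6 h. The c-Fos arrays stayed at 56.4 or less throughout, with 40.5 and 24.4 at 0 h and 51.1 and 38.4 at 6 h. At 3 and 6 h every control array was above every c-Fos array, and replicate 1 was the higher in each group. The control rise was 1.75 (SE 0.46, adjusted p = 0.0161) at 3 h and 1.65 (SE 0.46, adjusted p = 0.015) at 6 h, among 31526 probe sets of which 23.3% and 35.4% passed. The level with c-Fos shRNA was lower by 1.54 (adjusted p = 0.0389) at 3 h and by 1.56 (adjusted p = 0.0371) at 6 h, where 17.1% and 17.2% of probe sets passed. These calls rest on dim values near the filter. The probe set is above it mainly through the control groups of 3 and 6 h, with mean log2 values of 7.597 and 7.495 against a limit of 5.786, so that those groups had to be high. With no filter the differences between the arms no longer passed (adjusted p = 0.0534 and 0.0511). The control rise was lost without control replicate 2 of 0 h (1.16 at 3 h and 1.06 at 6 h) or without replicate 1 of the control group compared (adjusted p = 0.119 and 0.133). The differences between the arms were lost with a constant of 1 in place of 16 and without any of the 4 arrays compared at 3 h or 3 of the 4 compared at 6 h, for example without control replicate 1 (−1.29, adjusted p = 0.235, at 3 h and −1.13, adjusted p = 0.248, at 6 h). The interaction was −1.27 (SE 0.65, adjusted p = 0.903) at 3 h and −1.30 (SE 0.65, adjusted p = 0.511) at 6 h. With the block that at 6 h passed (adjusted p = 0.0254), opposite in sign to that of the brightest Pde4d probe set.

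Pde10a, the dual-specificity enzyme best known from striatal neurons, rose late. On 1439618_at, control arrays read 3209 and 3157 at 0 h, 2937 and 3228 at 1 h, 2717 and 3023 at 3 h, then 3543 and 3518 at 6 h. The c-Fos arrays read 3320 and 3174, then 3262 and 2976, then 3174 and 3075, and then 3860.5 and 4064. In each arm both arrays at 6 h were above all earlier ones. From 3 to 6 h the rise was 0.29 (SE 0.07, adjusted p = 0.0162) with control shRNA and 0.36 (SE 0.07, adjusted p = 0.00574) with c-Fos shRNA. Against 0 h, the c-Fos arm rose by 0.27 (adjusted p = 0.0105) and the control arm changed by 0.09 (adjusted p = 0.335). The first of these was lost without c-Fos replicate 2 of 0 h (0.21, adjusted p = 0.1) or of 6 h (0.26, adjusted p = 0.0564). The step from 3 to 6 h was lost without control replicate 1 of 3 h (0.22, adjusted p = 0.141) or either control array of 6 h (adjusted p = 0.095 and 0.0514), and in the c-Fos arm without c-Fos replicate 2 of 3 h (adjusted p = 0.0515). With the mean of all Pde10a probe sets none of these calls passed. The c-Fos change at 6 h was then 0.35 (adjusted p = 0.0909). The step from 3 to 6 h was 0.38 in both arms (adjusted p = 0.132 with control shRNA and 0.137 with c-Fos shRNA). On 1439618_at the difference between the arms at 6 h was 0.20 (adjusted p = 0.0733, or 0.0262 with the block). Its control change at 3 h was −0.20 (adjusted p = 0.0596, or 0.0224 with the block).

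The second brightest Pde10a probe set, 1458499_at, had the other arm past the threshold at 6 h. Its group mean went from 910 at 0 h to 1224 with control shRNA, which passed. That call was lost without any 1 of the control arrays of 0 or 6 h (0.40 to 0.48). With c-Fos shRNA its group mean went from 1106 to 1265, which did not pass. The dimmer 1419389_at of Pde10a rose further, from 348 and 287 at 0 h to 598 and 553 at 6 h with control shRNA and from 317 and 279.8 to 540.2 and 539 with c-Fos shRNA. The rises were 0.92 (SE 0.22, adjusted p = 0.00663) and 0.88 (SE 0.22, adjusted p = 0.00936). The first was lost without control replicate 2 of 0 h (0.77, adjusted p = 0.059), and the second without c-Fos replicate 2 of 0 h or replicate 1 of 6 h (0.74 and 0.82).

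Pde4a and Pde7b did not pass in any contrast without the replicate block. Pde4a, the third PDE4 enzyme, read 143 to 198 in the control arm and 119 to 148 in the c-Fos arm over all times. At 0, 1 and 3 h every control array was above every c-Fos array, where 58.1%, 56.1% and 59.2% of all genes did not overlap in either direction. On normalized values Pde4a did not overlap at 6 h either, beside 57.7% of all genes. Its differences were −0.35 at 0 h (SE 0.14, adjusted p = 0.107) and −0.35 at 1 h (adjusted p = 0.109), and both passed with the block (adjusted p = 0.0314 and 0.032). Pde7b, a cAMP-specific enzyme, read 132 to 290 over all arrays, and replicate 2 was the brighter in all 8 groups. Its changes at 6 h were 0.28 (SE 0.24, adjusted p = 0.376) with control shRNA and 0.40 (SE 0.24, adjusted p = 0.215) with c-Fos shRNA, which passed with the block (adjusted p = 0.0441 and 0.00738). The steps from 3 to 6 h, 0.36 and 0.51, also passed with it (adjusted p = 0.0225 and 0.00278) and not without it (0.373 and 0.185).

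Among the PKA subunits, the catalytic subunit Prkaca differed between the arms at all 4 times, higher in the c-Fos arm, and none of its KCl changes passed on the brightest probe set.

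**Figure D3:**
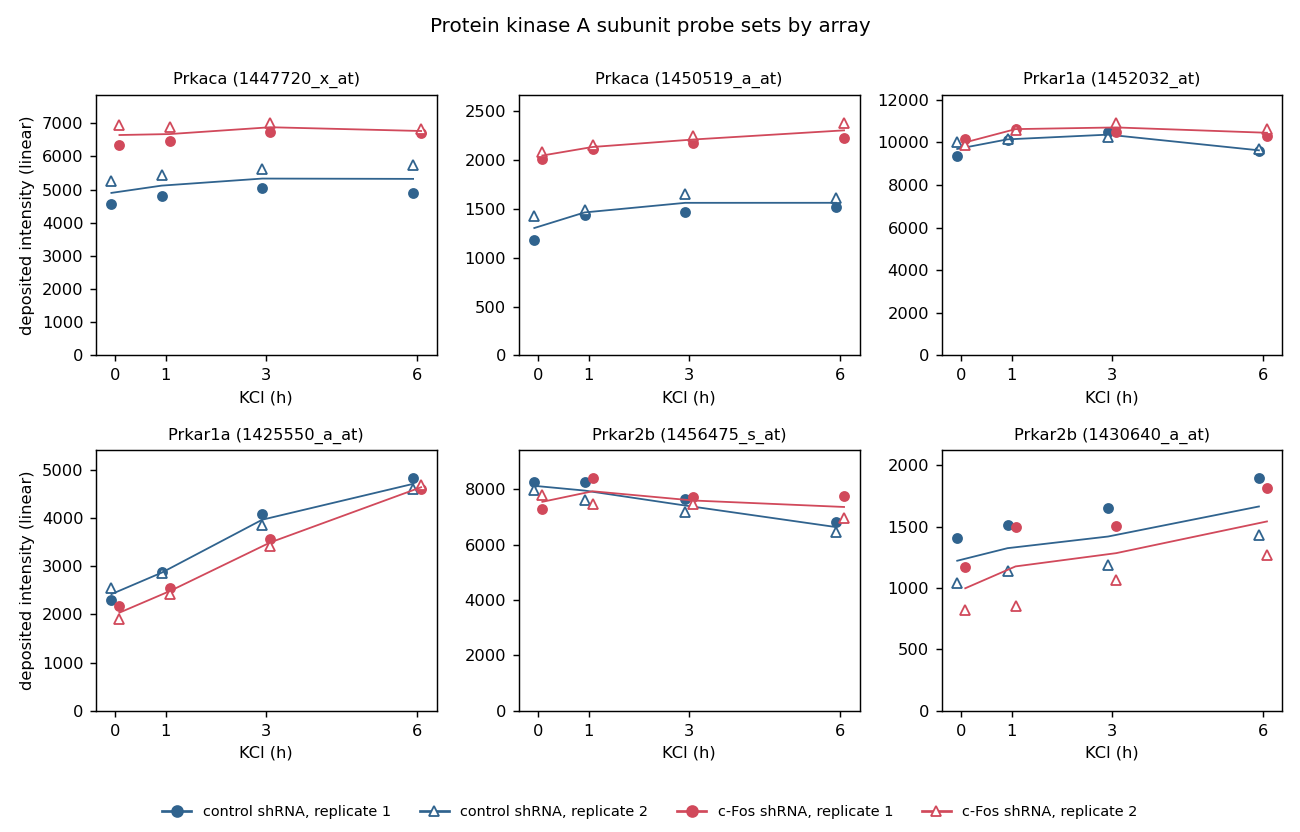
Deposited intensity (linear axes from 0) of PKA subunit probe sets against hours of KCl, with single arrays as points and lines through the means of the 2 arrays of a group. Both Prkaca probe sets lie higher in the c-Fos arm throughout, and the Prkar1a probe set 1425550_a_at climbs in both arms while 1452032_at stays between 9363 and 10913.

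On 1447720_x_at, whose suffix marks probes that can also match other transcripts, Prkaca read 4555 and 5244 at 0 h with control shRNA against 6347 and 6941 with c-Fos shRNA, and 4911 and 5732 against 6700.5 and 6829 at 6 h. Over all times the control arrays ran from 4555 to 5732 and the c-Fos arrays from 6347 to 7007, with no overlap. The differences in order of time were 0.43, 0.38, 0.37 and 0.38 (SE 0.08), with adjusted p-values of 0.00196, 0.00475, 0.00523 and 0.00469. Prkaca was thus the gene behind 1 of the 2 calls between the arms at 0 h, where 22.3% of all genes passed. Arrays of the arms did not overlap at 0 h in 58.1% of all genes. Without control replicate 1 of the same time, the calls at 1, 3 and 6 h were lost (0.32, 0.29 and 0.28, with adjusted p-values of 0.0582, 0.0687 and 0.0574). The second probe set, 1450519_a_at, kept all 4 calls with each array left out. It read 1182 and 1422 at 0 h with control shRNA against 2004 and 2082 with c-Fos shRNA, and its differences were 0.65, 0.57, 0.52 and 0.56 in order of time (SE 0.09, adjusted p of 0.000295 to 0.00133). This probe set also rose with KCl at 6 h in the control arm by 0.27 (adjusted p = 0.0282), a call lost without control replicate 1 of 0 h (0.14, adjusted p = 0.255) or either control array of 6 h.

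Prkar1a, the type I regulatory subunit, is read by a bright probe set, 1452032_at, whose intensities stayed between 9363 and 10913 over all 16 arrays. Its only call was a difference between the arms at 6 h, 0.12 (SE 0.04, adjusted p = 0.0484), where control arrays read 9581 and 9677 and c-Fos arrays 10297 and 10609. That call was lost without any of the 4 arrays compared (0.10 to 0.14, adjusted p of 0.0756 to 0.216) and under most other alternatives. The probe set 1425550_a_at of the same gene rose instead. It read 2289.98 and 2553 at 0 h, 2874 and 2860.0 at 1 h, 4084 and 3848 at 3 h, and then 4823 and 4595 at 6 h with control shRNA. With c-Fos shRNA it read 2178 and 1897 at 0 h and 4598 and 4681 at 6 h. The replicates lay close together, and within each arm no time overlapped with another. The rises were 0.67 (SE 0.09, adjusted p = 0.00013) at 3 h and 0.91 (adjusted p = 7.51e-06) at 6 h with control shRNA, and 0.75 (adjusted p = 6.85e-05) and 1.18 (adjusted p = 1.71e-06) with c-Fos shRNA. These 4 calls held with each array left out. None of its differences between the arms passed, and that of −0.26 at 0 h did with the block (adjusted p = 0.0156). The window with the full cAMP response element shown above is 1 of 6 Prkar1a windows, and the files do not say which start the probe sets follow.

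Prkar2b, the neuronal type II regulatory subunit, fell late in the control arm. On 1456475_s_at its control arrays read 8274 and 7982 at 0 h and 6831.5 and 6445 at 6 h, a fall of 0.34 (SE 0.08, adjusted p = 0.00494), lost without control replicate 2 of 6 h (−0.27, adjusted p = 0.0506) and with the mean of all its probe sets (−0.09, adjusted p = 0.709). The c-Fos arrays read 7303 and 7799 at 0 h and 7764 and 6965 at 6 h, and their change of −0.07 (adjusted p = 0.579) did not pass. The interaction at 6 h was 0.28 (SE 0.12, adjusted p = 0.316; 0.0179 with the block). Also with the block, and not without it, the control change of −0.17 at 3 h (adjusted p = 0.00871), the control step of −0.17 from 3 to 6 h (adjusted p = 0.0123) and the difference of 0.16 between the arms at 6 h (adjusted p = 0.0147) passed. A second bright probe set, 1438664_at, fell in both arms, by 0.36 (SE 0.08, adjusted p = 0.00364) with control shRNA and by 0.23 (adjusted p = 0.0482) with c-Fos shRNA. The second of these was lost without 11 of the 16 arrays in turn, 3 of them from the c-Fos groups compared (−0.15 to −0.27). The third, 1430640_a_at, gave 0.44 (adjusted p = 0.345) and 0.63 (adjusted p = 0.174) with KCl at 6 h, the opposite sign, and both passed with the block (adjusted p = 0.000782 and 3.87e-05).

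**Figure D4:**
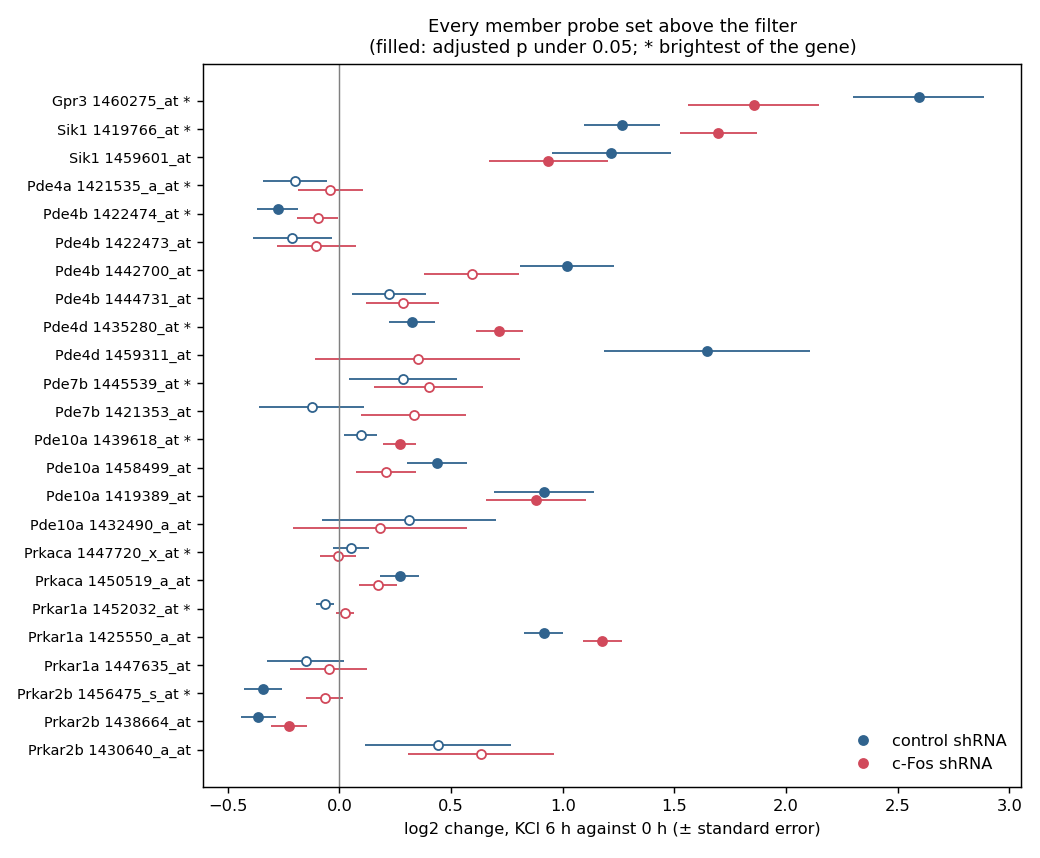
Log2 change at 6 h of KCl against 0 h for the 24 probe sets above the filter, by arm, with bars of 1 standard error; filled points have an adjusted p under 0.05. Probe sets of 1 gene can lie apart, as in Prkar1a, where 1425550_a_at is at 0.91 and 1.18 and 1452032_at at −0.06 and 0.03, while both Sik1 probe sets lie above 0.9 in both arms.

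Without the replicate block, Sik1, the kinase that closes the loop to CREB, was the only 1 of the 10 genes whose KCl change passed at 1 h. With the block, Gpr3 with control shRNA and Pde4b in both arms passed at 1 h too. Sik1 rose against 0 h at 1, 3 and 6 h in both arms. On 1419766_at, control arrays read 976 and 797 at 0 h, 2867.5 and 2456 at 1 h, 2903 and 2599 at 3 h, then 2583 and 1758 at 6 h. With c-Fos shRNA they read 618 and 589 at 0 h, 2175 and 1812 at 1 h, 2329 and 2344 at 3 h, then 1952 and 1919 at 6 h. All KCl arrays were above all 0 h arrays of their arm, and control replicate 2 of 6 h was the lowest of the later arrays. The rises were 1.55 (SE 0.17, adjusted p = 0.000126), 1.60 (adjusted p = 1.56e-05) and 1.27 (adjusted p = 6.26e-05) at 1, 3 and 6 h with control shRNA. With c-Fos shRNA they were 1.69 (SE 0.17, adjusted p = 6.63e-05), 1.96 (adjusted p = 3.73e-06) and 1.70 (adjusted p = 7.81e-06). None of these 6 calls was lost under any alternative that was run. The steps from 1 to 3 h and from 3 to 6 h did not pass in either arm. With the block the step of 0.27 from 1 to 3 h in the c-Fos arm did (adjusted p = 0.0407), as did the falls from 3 to 6 h of 0.34 (adjusted p = 0.0122) with control shRNA and 0.26 (adjusted p = 0.0469) with c-Fos shRNA.

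Sik1 was lower with c-Fos shRNA before KCl by 0.55 on the log2 scale (SE 0.17, adjusted p = 0.0341). It did not pass with median scaling in place of quantile normalization (−0.49, adjusted p = 0.0657) or without the intensity trend in limma (adjusted p = 0.0533). This call was lost without control replicate 1 (−0.40, adjusted p = 0.244), c-Fos replicate 1 (−0.65, adjusted p = 0.0668) or c-Fos replicate 2 (−0.46, adjusted p = 0.189) of 0 h. The differences at 1, 3 and 6 h were −0.41, −0.20 and −0.12 (adjusted p = 0.111, 0.46 and 0.664), and that at 1 h passed with the block (adjusted p = 0.00299). The interaction was 0.14, 0.35 and 0.43 (SE 0.24, adjusted p = 1, 0.903 and 0.469). With the block it did not pass either (adjusted p = 0.193 at 3 h and 0.053 at 6 h), though the value at 6 h is close to the threshold. So the difference between the arms at 0 h was not shown to shrink with KCl.

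The dim second Sik1 probe set, 1459601_at, had another time course, with a peak at 1 h. Control arrays read 26.6 and 41.3 at 0 h, 278 and 424.7 at 1 h, 129 and 179 at 3 h, then 82.4 and 119 at 6 h. In the c-Fos arm they read 21 and 42.1 at 0 h, 200.3 and 243 at 1 h, 143 and 121 at 3 h, then 64.2 and 81.3 at 6 h. Both 0 h groups are below the filter (mean log2 of 5.625 and 5.53 against 5.786), so the probe set is above it through the KCl groups. The rise at 1 h was 2.80 (SE 0.27, adjusted p = 6.88e-05) with control shRNA and 2.34 (adjusted p = 0.000336) with c-Fos shRNA, in contrasts where 3.11% and 2.96% of probe sets passed. At 6 h the rises were down to 1.22 (adjusted p = 0.00346) and 0.94 (adjusted p = 0.0177), and the latter was lost without c-Fos replicate 1 of 0 h (0.63, adjusted p = 0.163) or either c-Fos array of 6 h. The fall from 1 to 3 h with control shRNA, −1.03, passed but was lost without control replicate 2 of 1 h (−0.75, adjusted p = 0.206) or replicate 1 of 3 h (−0.82, adjusted p = 0.185). None of its differences between the arms passed, and that of −0.55 at 1 h did with the block (adjusted p = 0.0389). The genes whose group means ran most like those of the brighter Sik1 probe set were Idi1 (Pearson r = 0.986), A830010M20Rik (0.980), Magel2 (0.978), Cited2 (0.973) and Maff (0.968). Idi1 is an enzyme of isoprenoid synthesis, Cited2 a coregulator that binds CBP and p300, and Maff a small MAF transcription factor. The values carry no test.

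Between the arms as a whole, 2, 1, 2 and 3 of the 10 genes passed at 0, 1, 3 and 6 h, beside 22.3%, 20.7%, 23.3% and 23.8% of all genes and 22.5% over the 4 times. With the replicate block 17 of the 40 tests passed in place of 8, near the 38.8%, 37.9%, 40.4% and 41.5% of all genes that passed with it. Prkaca made 4 of the 8 calls, Gpr3 2, and Sik1 and Prkar1a 1 each. No interaction of the 10 genes passed, in contrasts where 0.0431%, 0.402% and 1.24% of all genes did, or 0.561% over the 3 times. Of the 30 interaction tests, 3 had an unadjusted p under 0.05 in limma, those of Pde4d at 3 and 6 h and of Prkar2b at 6 h, and the same count passed with the replicate block.

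**Figure D5:**
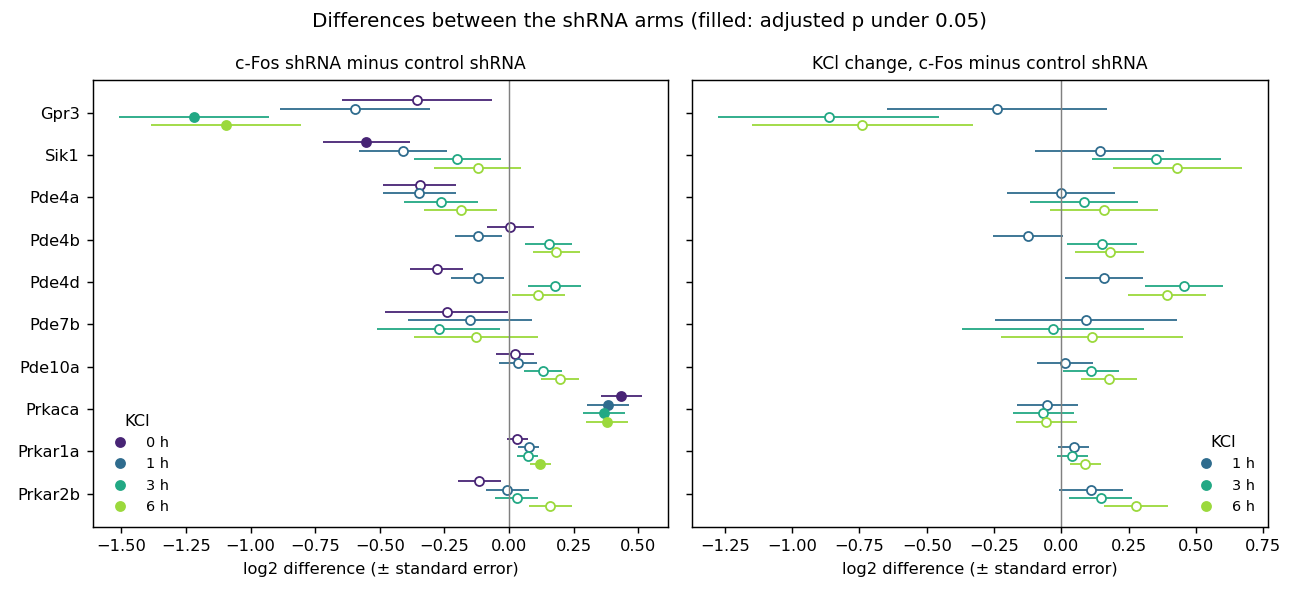
Log2 difference between the c-Fos and control shRNA arms at each time (left) and difference between the arms in the KCl change (right) for the 10 genes, with bars of 1 standard error. Filled points have an adjusted p under 0.05: Prkaca at all 4 times, Gpr3 at 3 and 6 h, Sik1 at 0 h and Prkar1a at 6 h on the left, and none on the right.

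The rest of the pathway was read from 6 lists of 72 symbols, of which 65 were on the array and 60 were tested. With control shRNA, 1 rose at 1 h, beside 3.12% of all genes in either direction. In the same arm 11 rose and 12 fell at 3 h, and 16 rose and 11 fell at 6 h, beside 30.2% and then 44.1%. In the c-Fos arm 6 rose and 10 fell at 3 h (28.2% of all genes), and 16 rose and 13 fell at 6 h (41%). With the replicate block the 3 h counts in the control arm became 15 and 22 and those in the c-Fos arm 9 and 18, where 44.4% and 42.9% of all genes passed. The list of SIK kinases, CREB coactivators, CREB family and Epac had 6 of 14 higher and 1 lower at 6 h with control shRNA, where 16.7% of all genes were higher and 27.4% lower. Crem, an inducible member of the CREB family, rose by 1.97, 3.58 and 4.10 at 1, 3 and 6 h (SE 0.11). Sik2 and Sik3, the relatives of Sik1, rose by 1.02 and 1.00 at 3 h, and Hdac5, a class IIa deacetylase that SIKs phosphorylate, by 1.26 at 6 h. Crtc1, the neuronal CREB coactivator, fell by 0.86 at 6 h (SE 0.09, adjusted p = 6.65e-06).

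Upstream, cyclases and receptors went both ways with KCl. Adcy8, a calcium-stimulated adenylyl cyclase, rose by 1.56 at 6 h with control shRNA (SE 0.10, adjusted p = 1.81e-07) and by 1.05 with c-Fos shRNA (adjusted p = 5.22e-06). Adcy9 rose by 0.87 and Adcy2 fell by 0.65 in the control arm, with 2 of 9 cyclases higher and 2 lower. Over all genes 16.7% were higher and 27.4% lower in this contrast. The counts of the other lists at 6 h below stand beside the same shares, and nothing particular to the pathway is read from them. Gpr12, the close relative of Gpr3, fell by 1.47 at 3 h (SE 0.11, adjusted p = 7.77e-07) and by 0.35 at 6 h. These changes were opposite in sign to those of Gpr3. The change of Gpr12 was smaller at 6 h than at 3 h, while that of Gpr3 was not. Gpr6, the third of that receptor family, fell at 1 h with c-Fos shRNA (−1.58, adjusted p = 0.0186). The dopamine receptor Drd1 rose by 1.15 at 6 h and Adcyap1r1, the receptor for the peptide PACAP, fell by 1.30. Of 10 other phosphodiesterases, 1 rose and 3 fell at 6 h with control shRNA, Pde7a being the one that rose (0.34, adjusted p = 0.0205). Those that fell were Pde2a (−0.74, adjusted p = 0.0270), Pde5a (−0.63) and Pde9a (−0.59, adjusted p = 0.0141). Pde5a and Pde9a both encode enzymes for cyclic GMP. Of 6 other PKA subunits and inhibitors, Prkar2a rose by 0.89, Pkib, an inhibitor of PKA, by 1.07 (adjusted p = 0.0182), and Prkacb fell by 0.51. Of 10 A-kinase anchors, which tether PKA, Akap13 and Akap12 rose by 1.06 and 0.54 and Akap1 and Akap11 fell by 1.43 and 0.28.

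Between the arms, 14 of the 60 pathway genes were higher and 8 lower with c-Fos shRNA at 0 h, and 11 and 5 at 6 h, beside 22.3% and 23.8% of all genes in either direction. With the replicate block these were 19 and 11, and 19 and 12, beside 38.8% and 41.5% of all genes. Of the adenylyl cyclases 5 of 9 were higher and none lower at 0 h, and 4 of 9 were higher at each later time, with a median difference of 0.475 at 0 h beside 0.02 over all genes. Over all genes 12% were higher and 10.3% lower before KCl, and 10.8%, 12.4% and 13.4% were higher at 1, 3 and 6 h. Counted with the block, 6 of 9 cyclases were higher and 1 lower at 0 h, and 1 was lower at each later time too. Those higher at 0 h without the block were Adcy1 (0.35), Adcy2 (0.63), Adcy5 (0.82), Adcy8 (0.48) and Adcy9 (0.96). Akap7 was higher by 1.57 at 0 h (SE 0.21, adjusted p = 0.000193) and by 1.36 at 6 h, and Prkar2a by 1.32 (SE 0.08, adjusted p = 4.98e-07) and 0.83. Prkar2a thus went with Prkaca in direction, while none of the differences of Prkar2b passed without the block. Gnas, the stimulatory G protein subunit that Gpr3 uses, was higher at 0 h by 0.32 (adjusted p = 0.00108). Lower at 0 h were Hdac4 (−0.91), Ppp1r1b (−0.77), which encodes the PKA target DARPP-32, Sik3 (−0.65), Pde3b (−0.53) and Pde7a (−0.42). In the interaction, 2 of the 60 passed at 6 h, Akap13 (−0.67, adjusted p = 0.035) and Hdac5 (−0.67, adjusted p = 0.0201), beside 1.24% of all genes, and with the block 2 were higher and 7 lower, beside 11.3%.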

How the data were processed

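RNA of 16 samples was measured on 16 Affymetrix mouse genome 430 2.0 arrays, 2 for each of 8 groups. The deposited values are 1 linear intensity for each of 45101 probe sets and array, from Affymetrix processing per the labels' protocols. Which software summarized the probes, and its version, is not given in the sources used here. Intensities ran from 0.51 to 23935.63, and array medians from 104.75 to 118.56. Arrays carry no read depth, so their number, 2 a group, limits the precision.

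Intensities were turned into log2(intensity + 16) and quantile normalized, because the deposited array medians differed by 13.2%, over a limit of 10%. The 64 control probe sets were left out. Platform annotation named 1 gene for 34945 probe sets, several for 932 (not used) and none for 9160, and 34741 matched RefSeq. The brightest probe set stood for a gene. Genes with a mean above the 30th percentile of probe sets (log2 5.79) were kept, 13915 of 18193, and all 31526 probe sets above it went into a separate fit. limma 3.58.1 in R 4.3.3 fitted 8 group means (8 residual degrees of freedom, eBayes with intensity trend), with Benjamini-Hochberg adjustment within each contrast and a threshold of 0.05. Tables and figures were made with Python 3.11.15, pandas 2.3.3 and matplotlib 3.10.9.

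The labels number the replicates. Same-numbered arrays deviated together in 28 of 28 pairs of groups (r of 0.364 to 0.596, over the limit of 0.1), so the numbers pair the arrays, and a fit with the number as a block is given beside the values of the brightest probe sets whose call it changes. For the other probe sets only some such changes are given. Arrays of a group correlated at 0.9906 to 0.9939. On simulated data for 13915 genes, the fit recovered 84% of genes changed by 1 log2 unit at 6 h of KCl with control shRNA, 77% between the arms at 0 h and 58% in the interaction at 6 h. The simulated noise was independent between arrays and few genes were changed. Both differ from these data, so recovery here can differ.

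The genes, pathway lists and markers were chosen with earlier results of these data known. Named are the 10 genes in every contrast, Fos, called genes of the pathway lists with the largest changes, and the 5 genes with the most similar group means for genes spanning at least 1 log2 unit. Alternatives varied the normalization, the added constant, the filter, the probe set rule, the trend, the block and each array left out. Running them on the other 14 probe sets was added after seeing the data.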

Additional observations from a re-analysis of the deposited data

Results flagged for a closer look

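Differences between the arms in the KCl change (the interaction) passed for Pde4d and Prkar2b in limma when the replicate number was a block, and none passed without it. On the brightest Pde4d probe set the interaction was 0.46 and 0.39 at 3 and 6 h (adjusted p = 0.0081 and 0.0105), a larger rise with c-Fos shRNA. On the dim Pde4d probe set 1459311_at it was −1.30 at 6 h (adjusted p = 0.0254), a smaller rise with c-Fos shRNA. For Prkar2b it was 0.28 at 6 h (adjusted p = 0.0179) on its brightest probe set, a smaller fall with c-Fos shRNA. On the second bright Prkar2b probe set, 1438664_at, which read lower at 6 h in both arms, the interaction did not pass with the block. In the blocked fit 4% and 11.3% of all genes passed in the interaction at 3 and 6 h, and 5.44% of probe sets at 6 h.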

How the results depend on the processing

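With the replicate number as a block, the calls among the 10 genes rose from 9 to 14 of 30 for KCl with control shRNA, from 8 to 17 of 40 between the arms and from 0 to 3 of 30 for the interaction. Calls over all genes rose with it too, for example from 44.1% to 56.9% for KCl at 6 h with control shRNA, from 22.3% to 38.8% between the arms at 0 h and from 1.24% to 11.3% for the interaction at 6 h. All 32 single calls were kept with the block. Leaving out 1 array at a time, with the lone array of its group assumed to vary like the others, gave 7 to 10 calls for KCl with control shRNA, 8 to 10 with c-Fos shRNA, 6 to 8 between the arms and 0 for the interaction. Of the 32 single calls, 12 were kept under every alternative run, and 20 were lost under at least 1. With the mean of all probe sets of a gene 12 kept their sign but no longer passed. A further call, Pde4b at 6 h of KCl with control shRNA, turned its sign and did not pass (0.21, adjusted p = 0.112). Among values not called before, Prkar1a at 6 h (0.23, adjusted p = 0.0374) and Sik1 from 1 to 3 h (−0.48, adjusted p = 0.00461), both with control shRNA, turned their sign and passed. Such turns come by the construction of that mean, since it averages probe sets that moved apart. A filter at the 50th percentile removed Gpr3. Of 31 calls of the other 14 probe sets, 17 were kept under every alternative and none changed sign.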
